A study of Mus musculus with 5 samples.

Results

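Transcripts of 10 genes of inflammatory signalling were followed in cultured mouse adipocytes: the CXC chemokine genes Cxcl1, Cxcl5, Cxcl10 and Cxcl12, the CC chemokine genes Ccl2, Ccl5 and Ccl7, the cytokine genes Il6 and Csf1, and Ptgs2, which encodes the inducible cyclooxygenase. They were taken as every probe set whose platform symbol names 1 of these 10 genes alone, which gave 18 of 45037 probe sets for 10 of 18193 genes named on the array. A probe set is a group of short oligonucleotides on the array that are summarised as 1 intensity. The cells were C3H10T1/2, a mouse mesenchymal line, fully differentiated into adipocytes and then exposed for 6 h to butein, to sulfuretin, to resveratrol or to solvent. Of the 2 solvent cultures, DMSO was the control used here for butein and sulfuretin, and DMSO1 is the control that the labels name for resveratrol. Each of the 5 groups is 1 array of total RNA, so no difference below has an error from replicates and no test was run. Doses are not in the labels. Butein is a chalcone, sulfuretin an aurone in which the bridge of the chalcone is closed into a ring, and resveratrol a stilbene.

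Chemokines are small secreted proteins that attract leukocytes through G protein-coupled receptors. CXCL1 and CXCL5 draw neutrophils through CXCR2, CXCL10 draws activated T cells through CXCR3, CXCL12 holds and attracts CXCR4-bearing cells, CCL2 and CCL7 draw monocytes through CCR2, and CCL5 draws T cells and monocytes. Interleukin 6 signals through gp130 and STAT3, CSF1 supports the survival and growth of macrophages, and cyclooxygenase 2 makes the precursor of the prostaglandins. Adipocytes and the stromal cells around them secrete several of these factors, and in obese fat tissue the chemokines are tied to the arrival of macrophages. Many of these genes are transcribed on short notice, with binding sites for NF-kB, AP-1 and C/EBP factors close to their starts.

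The arrays fell into 2 sets by the distribution of their values, and whether they had been normalised apart is not stated in the labels. The median probe set read 6.853 on the butein, sulfuretin and DMSO arrays, against 11.46 on the resveratrol array and 11.12 on the DMSO1 array, so intensities and main differences are compared within a set, and values set across the sets are named as such. All 7 adipocyte markers that could be named, Adipoq and Fabp4 among them, lay at or above the median on all 5 arrays, as did 6 of 7 stromal markers. Of 12 macrophage and leukocyte markers, 8 were under the median on all 5 arrays, Ptprc and Adgre1 among them. Cd14 and Csf1r, the gene of the CSF1 receptor, were at or above the median on all 5, Fcgr1 on 3 and Cd68 on 1. None is listed at 0, but the lowest reading on any array was 1.4. The summed intensity of the 12 was 81.4 with butein, 87.6 with sulfuretin and 87.7 with DMSO, and 121 with resveratrol and 119 with DMSO1. In such bulk RNA, fewer cells of a type and less RNA per cell cannot be told apart.

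Promoters of the members that passed 2-fold with some compound are shown, so the set was chosen by the differences below. Cxcl10 among them was near background. RefSeq (GRCm38.p6) windows of 250 bases before to 50 after the start were given for 6 of the 10 genes, and 4 of those 6 had passed 2-fold. Capitals mark matches, on either strand, to GGG, any 2 bases and TTTCC (kappa B), TGACTCA (AP-1), TGACGTCA (CRE) or TGACNNNGC (antioxidant response element core). They also mark TTGCNNCAA (a C/EBP pattern spaced wider than the palindrome core) and TTGCGCAA (the C/EBP palindrome core, added after the sequences were seen). The last patterns are GAAA, any 2 bases and GAAA (interferon-stimulated response element) and TATAAA.
Cxcl1, chr5:90890995-90891294, + strand: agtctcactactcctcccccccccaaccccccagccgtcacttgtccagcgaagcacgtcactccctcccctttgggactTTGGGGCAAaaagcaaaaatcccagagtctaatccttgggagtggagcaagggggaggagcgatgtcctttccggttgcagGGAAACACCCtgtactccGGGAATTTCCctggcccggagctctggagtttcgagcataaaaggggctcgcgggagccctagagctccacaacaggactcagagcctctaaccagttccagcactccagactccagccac
Ptgs2, chr1:150099781-150100080, + strand: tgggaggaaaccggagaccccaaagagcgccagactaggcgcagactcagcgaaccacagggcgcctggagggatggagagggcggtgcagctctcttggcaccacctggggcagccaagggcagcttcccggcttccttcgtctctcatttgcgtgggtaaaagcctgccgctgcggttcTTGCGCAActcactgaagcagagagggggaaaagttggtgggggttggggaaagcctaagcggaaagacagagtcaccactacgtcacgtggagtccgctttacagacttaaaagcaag
Csf1, chr3:107760420-107760719, - strand: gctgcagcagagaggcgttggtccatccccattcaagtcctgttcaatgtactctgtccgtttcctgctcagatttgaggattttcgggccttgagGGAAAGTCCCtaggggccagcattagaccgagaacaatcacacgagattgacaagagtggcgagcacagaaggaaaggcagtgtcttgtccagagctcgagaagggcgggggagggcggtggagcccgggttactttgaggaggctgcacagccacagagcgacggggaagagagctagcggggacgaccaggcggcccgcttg
Cxcl10, chr5:92348840-92349139, - strand: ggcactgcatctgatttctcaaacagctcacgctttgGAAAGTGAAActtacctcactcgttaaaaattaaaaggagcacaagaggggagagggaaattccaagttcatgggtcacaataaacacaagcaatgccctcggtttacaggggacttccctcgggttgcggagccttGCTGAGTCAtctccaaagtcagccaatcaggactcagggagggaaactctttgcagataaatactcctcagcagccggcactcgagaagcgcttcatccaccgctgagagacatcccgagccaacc
The Cxcl1 window held the kappa B letters at bases 162 to 171 and at bases 180 to 189, and the Csf1 window held them at bases 97 to 106. These letters occur in 1.63% of the 32851 promoter windows in the table. The Ptgs2 window held TTGCGCAA at bases 182 to 189, which 0.183% of windows hold, and none of the other patterns. In the Cxcl10 window an AP-1 match at bases 177 to 183 lay inside an antioxidant response element core match at bases 175 to 183, and the interferon-stimulated pattern stood at bases 38 to 47. Those 3 patterns occur in 5.20%, 12.4% and 3.44% of windows. The wider C/EBP pattern, TTGCNNCAA, stood in the Cxcl1 window at bases 81 to 89 and occurs in 2.08% of windows. It does not require 2 full half-sites. The Il6 window, not printed because Il6 was near background and did not pass 2-fold, held kappa B and AP-1 matches. The Cxcl12 window held no match to these letters.

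Butein gave the widest difference among these genes. A probe set was called higher or lower at a difference of 2-fold, a log2 difference of 1. Against DMSO, 8 of the 18 probe sets, of 5 genes, were at least 2-fold higher with butein and 0 lower, where 1.02% of all 45037 probe sets were at least 2-fold higher and 0.258% lower. The genes were Cxcl1, Cxcl5, Ccl2, Csf1 and Ptgs2. The members, and the gene lists below, were chosen with earlier results of these data known. Setting their counts beside the shares over all probe sets or genes is therefore a description and no test. Over the 18 probe sets the median log2 difference was 0.65, and over all probe sets it was 0. With a floor, so that the brighter of the 2 arrays reached its own median, 15 of the 18 were counted. The 3 below the floor were those of Cxcl10 and Il6 and the dimmer one of Ptgs2.

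**Figure D1:**
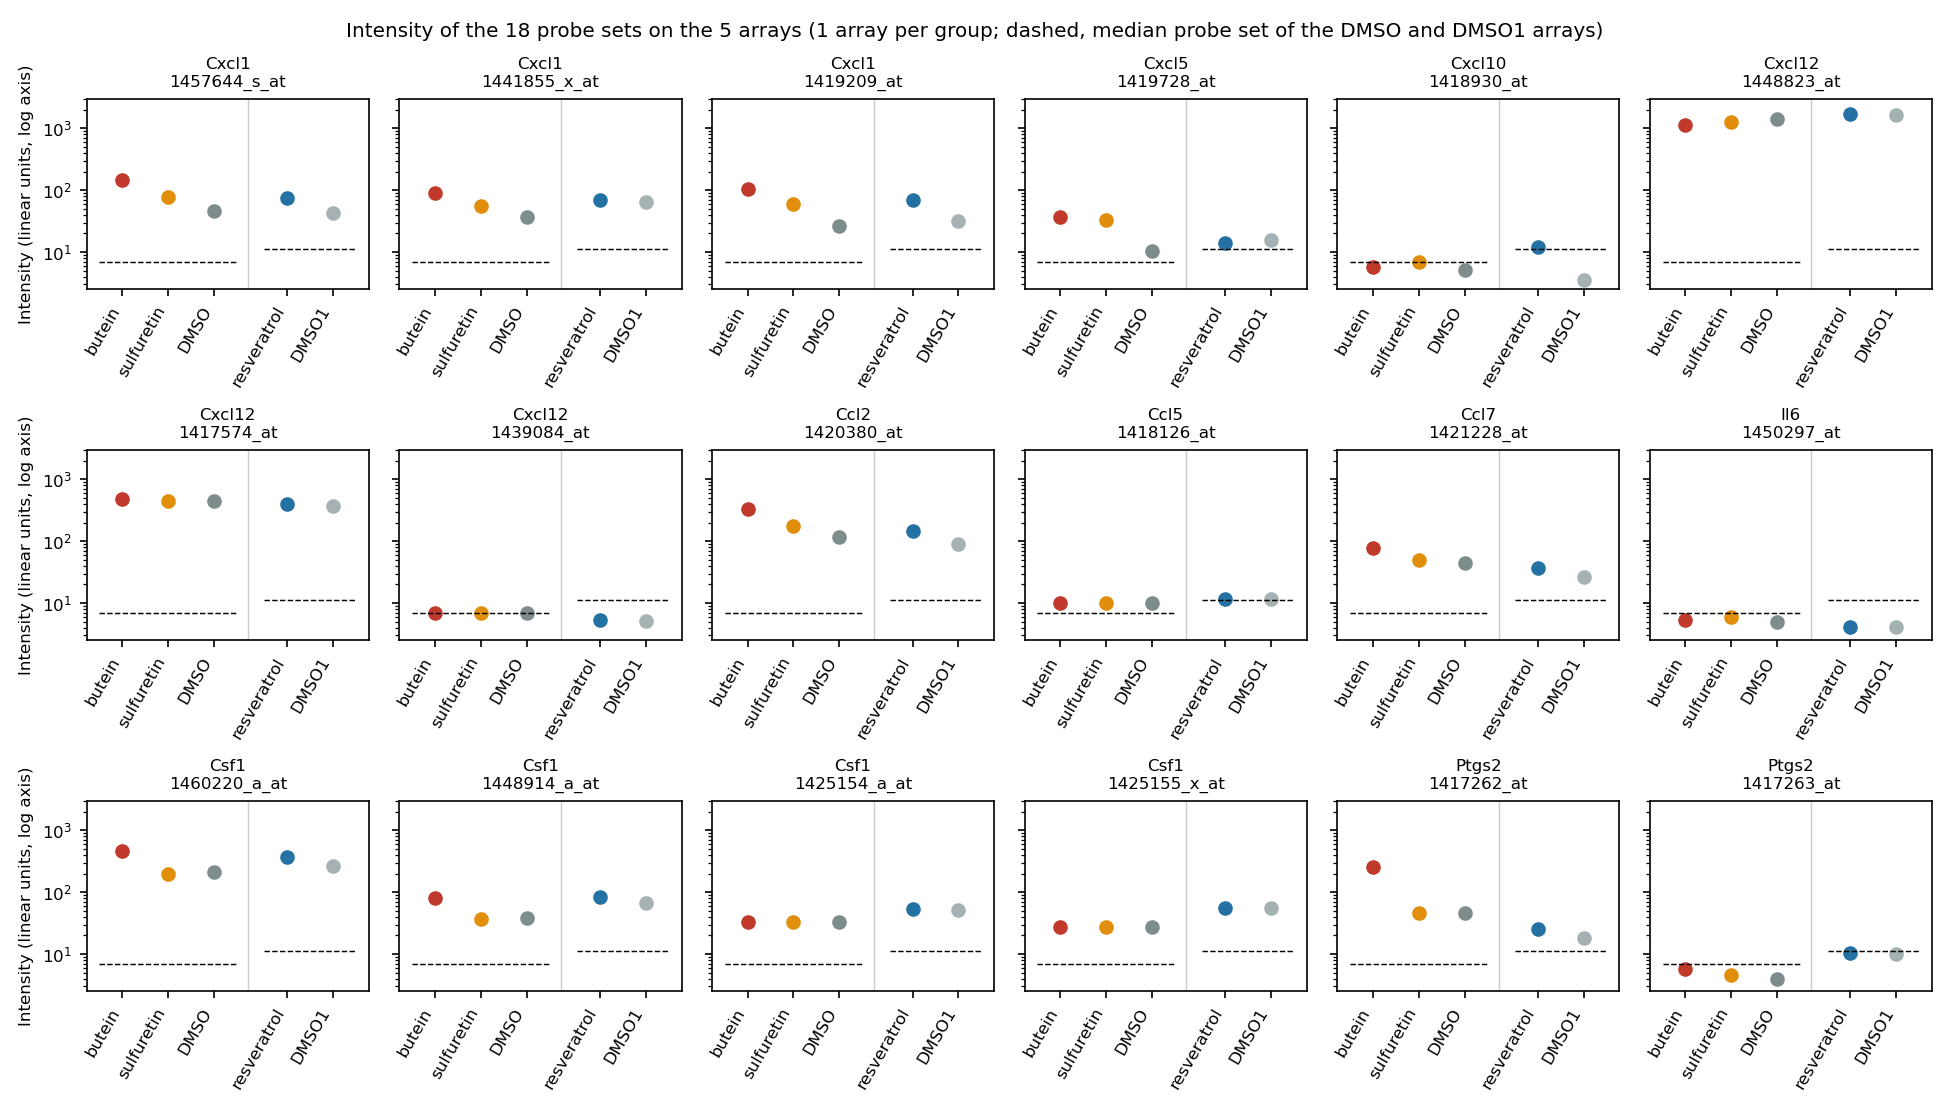
Intensity (linear units on a log axis) of each of the 18 probe sets on the butein, sulfuretin, DMSO, resveratrol and DMSO1 arrays, 1 point per array, with dashed lines at the median probe set of the DMSO array and of the DMSO1 array. Ptgs2 on 1417262_at stands at 257 with butein, against 46.0 with sulfuretin and 47.0 with DMSO, while Il6 lies under the dashed lines throughout.

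Among the neutrophil-attracting chemokines, Cxcl1 (NCBI gene 14825) has 3 probe sets, and the order butein, sulfuretin, DMSO from high to low held on each. On 1419209_at Cxcl1 read 103 with butein and 58.9 with sulfuretin, against 26.9 with DMSO. On 1457644_s_at it read 148 with butein and 78.2 with sulfuretin, against 46.9 with DMSO. On 1441855_x_at it read 89.2 with butein and 55.1 with sulfuretin, against 36.6 with DMSO. With butein the probe sets were therefore 3.83-fold, 3.16-fold and 2.43-fold higher, and with sulfuretin higher by log2 differences of 1.13, 0.74 and 0.59. Against DMSO1, on its different scale, the log2 difference on 1441855_x_at was 0.44 with butein, short of 2-fold, and -0.25 with sulfuretin. With resveratrol, 1419209_at read 70.4 against 31.8 with DMSO1 (2.21-fold higher), 1457644_s_at read 75.8 against 43.5 (1.74-fold), and 1441855_x_at read 70.4 against 65.6 (1.07-fold). Of the 18 probe sets, only 1419209_at passed 2-fold with all 3 compounds. That held in 6 of 6 other settings with butein, but in 4 of 6 with sulfuretin (lowest log2 difference 0.89) and in 3 of 6 with resveratrol (lowest 0.66). The suffixes _s and _x mark probe sets whose oligonucleotides can match other transcripts.

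Cxcl5 (NCBI gene 20311) separated the compounds in another way. Its probe set 1419728_at read 37.4 with butein and 33.0 with sulfuretin, against 10.3 with DMSO, and 13.8 with resveratrol against 15.4 with DMSO1. Butein and sulfuretin were 3.64-fold and 3.21-fold higher than DMSO, and the log2 difference with resveratrol was -0.17. The resveratrol sign turned to 0.42 against the DMSO array, on a different scale. Among counted probe sets Cxcl5 was the 14th highest of 23560 with sulfuretin and the 117th highest of 23602 with butein. Its DMSO reading was 1.5 times the array median, so both folds rest on a low control reading. Adding 8 intensity units before the logarithm took the log2 difference from 1.86 to 1.31 with butein and from 1.68 to 1.16 with sulfuretin.

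The T cell chemokine gene Cxcl10 (NCBI gene 15945) was near background. On 1418930_at it read 5.65 with butein and 7.04 with sulfuretin, against 5.12 with DMSO. With resveratrol it read 12.0 against 3.52 with DMSO1, 3.41-fold higher and the highest of 22708 counted probe sets in that comparison. Under the floor in DMSO1 and 1.05 times the array median with resveratrol, it was counted through the resveratrol array alone, so the size of this difference is uncertain. With 8 intensity units added before the logarithm, the log2 difference of 1.77 became 0.80.

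Cxcl12 (NCBI gene 20315), the stromal chemokine, was bright and nearly level against the controls used here. Its brightest probe set, 1448823_at, read 1126 with butein and 1262 with sulfuretin, against 1411 with DMSO, and 1715 with resveratrol against 1663 with DMSO1. The log2 differences were -0.33, -0.16 and 0.04. On 1417574_at it read 484 with butein, 445 with sulfuretin and 445 with DMSO, and 396 with resveratrol against 378 with DMSO1. Its dimmest probe set, 1439084_at, read 6.85 on the butein, sulfuretin and DMSO arrays, exactly their median, and 5.42 with resveratrol against 5.18 with DMSO1, under the median. The brightest probe set was thus the only one of the 18 that was lower with butein than with DMSO, by less than 2-fold. After all 5 arrays had been quantile normalised together, 1417574_at was at 0.74 with butein and 0.64 with sulfuretin against DMSO1 (log2). The brightest probe set was at -0.34 and -0.19 there.

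Of the monocyte chemokines, Ccl2 (NCBI gene 20296) read 334 with butein and 175 with sulfuretin, against 119 with DMSO, on its probe set 1420380_at. With resveratrol it read 148, against 89.1 with DMSO1. Ccl2 was 2.80-fold higher with butein, 1.46-fold with sulfuretin and 1.67-fold with resveratrol. Ccl7 (NCBI gene 20306), which has 0 protein-coding genes between it and Ccl2 on chromosome 11 of the RefSeq table, had the same order on 1421228_at. It read 79.0 with butein and 50.6 with sulfuretin, against 45.2 with DMSO, and 37.4 with resveratrol against 26.1 with DMSO1. These are 1.75-fold, 1.12-fold and 1.44-fold higher, all short of 2-fold. Both genes depended on the control. After all 5 arrays had been quantile normalised together, Ccl7 was higher than DMSO1 by 2.31 with butein and 1.72 with sulfuretin on the log2 scale, and Ccl2 by 1.51 with sulfuretin, all past 2-fold. With resveratrol the signs turned: against the DMSO array after all 5 arrays had been quantile normalised together, Ccl2 was at -0.15 and Ccl7 at -1.06 on the log2 scale.

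Ccl5 (NCBI gene 20304) showed no difference in any comparison within a set. On 1418126_at it read 10.2 with butein, sulfuretin and DMSO alike, and 11.5 with resveratrol and DMSO1 alike. Equal readings are common in the deposited values. With butein and DMSO, 48.5% of all probe sets had equal values, and 106 probe sets of the butein array and 232 of the DMSO array shared the reading of Ccl5 itself. A zero difference at such a reading is therefore a coarse measurement.

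**Figure D2:**
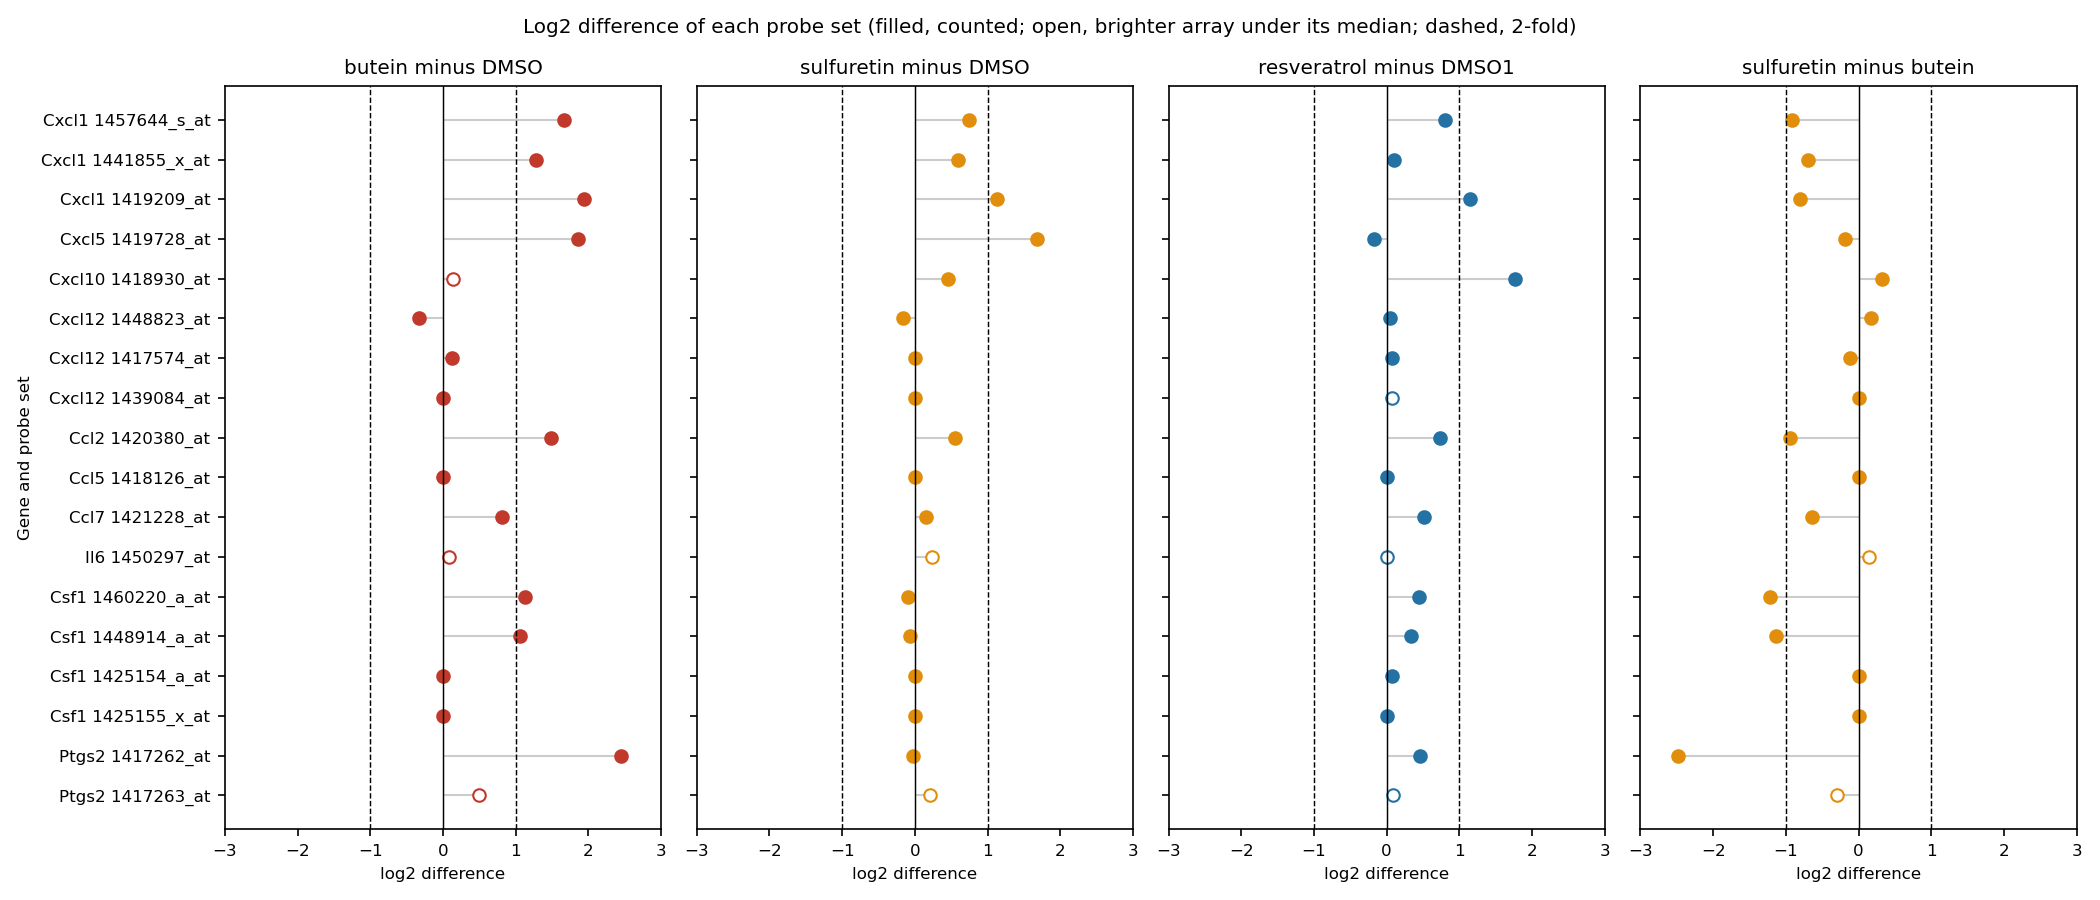
Log2 difference of each of the 18 probe sets (horizontal axis) in 4 comparisons, butein minus DMSO, sulfuretin minus DMSO, resveratrol minus DMSO1 and sulfuretin minus butein, with filled points where the brighter array reached its median, open points where it did not, and dashed lines at 2-fold. With butein 8 points lie past the upper line, with sulfuretin and resveratrol 2 each, and in sulfuretin minus butein 3 lie past the lower line.

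Il6 (NCBI gene 16193) was near background on all 5 arrays. Its probe set 1450297_at read 5.31 with butein and 5.91 with sulfuretin, against 5.03 with DMSO, and 4.10 with both resveratrol and DMSO1. All 5 readings lay under the array medians, so a difference in Il6 was not detectable on these arrays. The receptor subunit gene of the IL-6 family, Il6st, was measured well above the median and read 360 with butein and 320 with sulfuretin, against 257 with DMSO. Against DMSO1 as deposited, Il6st was at -0.06 with butein and -0.23 with sulfuretin on the log2 scale.

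Csf1 (NCBI gene 12977) gave readings that depended on the probe set. On 1460220_a_at it read 464 with butein and 199 with sulfuretin, against 212 with DMSO, and 365 with resveratrol against 269 with DMSO1. On 1448914_a_at it read 81.0 with butein and 37.1 with sulfuretin, against 39.0 with DMSO, and 84.8 with resveratrol against 67.5 with DMSO1. This pair was 2.18-fold and 2.08-fold higher with butein, 1.36-fold and 1.26-fold higher with resveratrol, and at log2 differences of -0.10 and -0.07 with sulfuretin. The other pair, 1425154_a_at and 1425155_x_at, read 33.3 and 27.7 on each of the butein, sulfuretin and DMSO arrays. With resveratrol that pair read 54.6 and 55.4, against 52.1 and 55.4 with DMSO1. Which transcripts each of the 2 pairs detects was not analysed here. The call on 1448914_a_at lay just past the criterion and was kept by 1 of 6 other settings, against 5 of 6 for 1460220_a_at.

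Ptgs2 (NCBI gene 19225) had the largest difference with butein among the 18 probe sets. On 1417262_at it read 257 with butein and 46.0 with sulfuretin, against 47.0 with DMSO, and 25.3 with resveratrol against 18.4 with DMSO1. Butein was 5.47-fold higher than DMSO, sulfuretin differed by -0.03 on the log2 scale, and resveratrol was 1.37-fold higher than DMSO1. The second probe set, 1417263_at, was under the median throughout, with 5.65 with butein and 4.62 with sulfuretin, against 3.99 with DMSO, and 10.5 with resveratrol against 9.90 with DMSO1. The butein result therefore rests on 1 of the 2 probe sets of the gene. Near level against DMSO, sulfuretin was higher by 1.32 on the log2 scale against DMSO1 as deposited, by 2.11 against DMSO1 after joint quantile normalisation, and by 1.03 against the mean of both DMSO arrays after it. The sign with resveratrol turned to -0.89 against the DMSO array as deposited and to -1.72 after joint quantile normalisation.

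With sulfuretin, 2 of the 18 probe sets were at least 2-fold higher than in DMSO, those of Cxcl5 and 1 of Cxcl1, and 0 were lower, where 0.107% of all probe sets were higher and 0.0333% lower. With resveratrol, 2 of the 18 were at least 2-fold higher than in DMSO1, 1 each of Cxcl1 and Cxcl10, and 0 were lower, where 0.0355% of all probe sets were higher and 0.0311% lower. The resveratrol count was 0 with 8 intensity units added and 0 against the mean of both DMSO arrays after joint quantile normalisation, and against DMSO after that normalisation 0 were higher and 2 lower. Its Cxcl10 call was made with a control reading under the median. The sulfuretin count was 7 against DMSO1 after joint quantile normalisation. The median over the 18 probe sets was 0.08 with sulfuretin and 0.09 with resveratrol, and 0 over all probe sets in both comparisons. Butein and sulfuretin share the DMSO array, so a high or low reading there enters both differences.

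Sulfuretin and butein were then set against each other directly. They are structurally related compounds, given for the same 6 h at unstated doses, and the comparison does not use the DMSO array. Of the 18 probe sets, 3 were at least 2-fold lower with sulfuretin and 0 higher, where 0.508% of all probe sets were lower and 0.0644% higher. Ptgs2 on 1417262_at was 5.58-fold lower with sulfuretin, and Csf1 was 2.34-fold lower on 1460220_a_at and 2.18-fold lower on 1448914_a_at. Ccl2 was 1.91-fold lower, the 3 probe sets of Cxcl1 were 1.62-fold to 1.90-fold lower and Ccl7 was 1.56-fold lower, all short of 2-fold. Cxcl5 was close in both, with a log2 difference of -0.18. With 1 array per compound, no interval can be put on this or any other of these differences, and likeness of the compounds on Cxcl5 is not shown by it.

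The 2 solvent arrays are the only arrays with the same treatment, and the members differed between them. As deposited, on different scales, Ptgs2 on 1417262_at read 18.4 with DMSO1 and 47.0 with DMSO, although all probe sets had a median log2 difference of 0.26 upward. After the 5 arrays were quantile normalised together, DMSO1 minus DMSO was -2.15 for that probe set of Ptgs2, beside 2.32 for butein minus DMSO. For Ccl7 the values were -1.60 between the solvent arrays and 0.71 with butein. For Ccl2 they were -0.98 and 1.44, and for Cxcl1 on 1457644_s_at -0.87 and 1.56. For Cxcl5 they were -0.28 and 1.75, and for Csf1 on 1460220_a_at -0.08 and 1.11. Solvent cultures thus differed for Ptgs2 on 1417262_at nearly as much as butein and DMSO did, and for Ccl7 more. For Cxcl5 and for Csf1 on 1460220_a_at the solvent difference was small beside that with butein. On the other Csf1 probe sets it was 0.08 beside 0.94 (1448914_a_at), -0.13 beside -0.04 (1425154_a_at) and 0.22 beside -0.03 (1425155_x_at). Culture and normalisation set cannot be told apart in DMSO1 against DMSO.

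**Figure D3:**
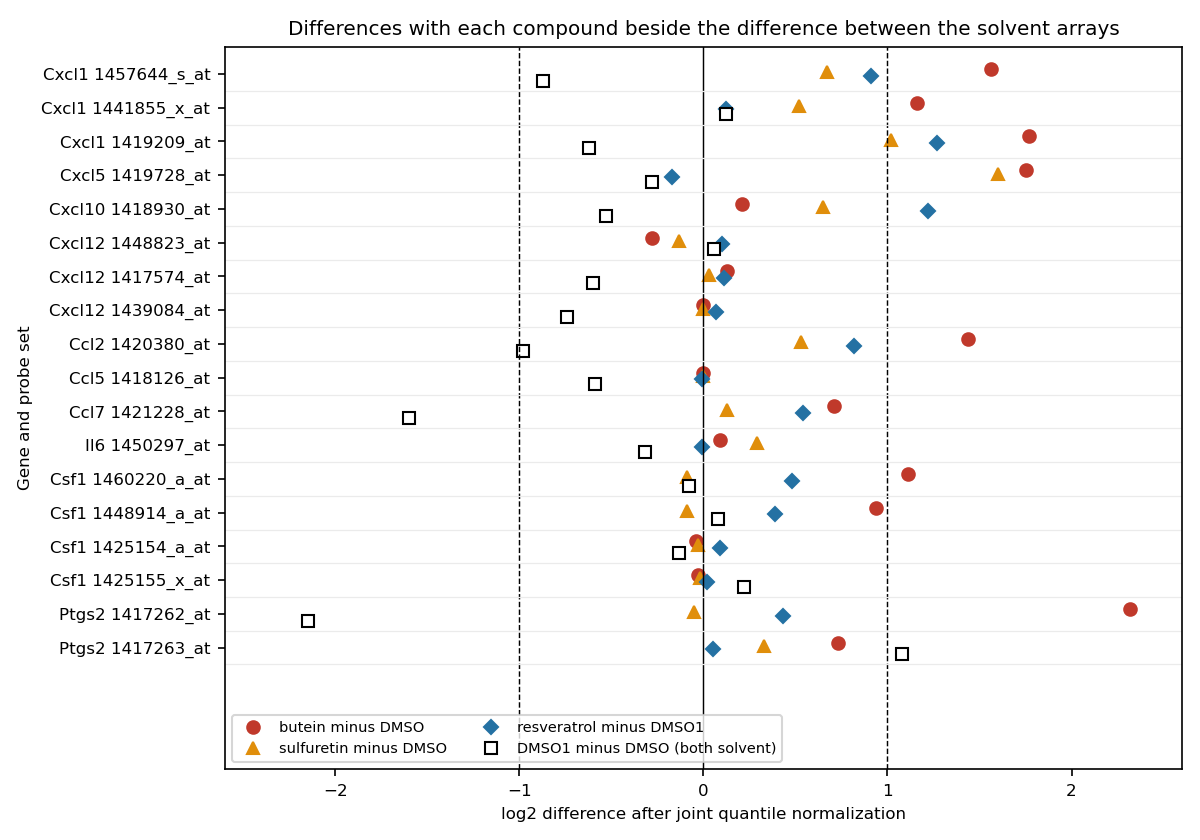
Log2 differences of the 18 probe sets after joint quantile normalisation of the 5 arrays (horizontal axis) for butein minus DMSO, sulfuretin minus DMSO and resveratrol minus DMSO1 (filled), and for DMSO1 minus DMSO (open squares), with dashed lines at 2-fold. For Ptgs2 on 1417262_at the open square at -2.15 is nearly as far from 0 as the butein point at 2.32, whereas for Cxcl5 the square is at -0.28 and the butein point at 1.75.

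Other genes of these pathways were described by their brightest probe set. In the list of NF-kB subunits, inhibitors and targets, 1 of 18 counted genes was at least 2-fold higher with butein and 0 lower, beside 2.14% of all counted genes higher and 0.314% lower. It was Nfkbiz, which encodes the nuclear inhibitor-like protein needed for Il6 induction in macrophages, at 197 with butein and 52.0 with sulfuretin, against 37.9 with DMSO. The median of the list was 0.11, and 0 over all genes. In the IL-6 and STAT3 list, 4 of 12 counted genes were at least 2-fold higher with butein and 0 lower, with a median of 0.59. Socs3, the feedback inhibitor of gp130 signalling, read 698 with butein and 107 with sulfuretin, against 104 with DMSO. Junb, Pim1 and Cebpb were 3.75-fold, 3.24-fold and 2.99-fold higher. Against DMSO1 on its different scale, Cebpb (0.99) and Pim1 (0.88) fell short of 2-fold and Junb turned to -0.16.

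Among other cytokines, Clcf1, a ligand of the gp130 family, was 4.46-fold higher with butein and Hbegf, an EGF receptor ligand, 2.86-fold higher, 2 of 7 counted genes. For this and the lists that follow, 2.14% of all counted genes were at least 2-fold higher with butein and 0.314% lower. Against DMSO1 as deposited, the log2 difference with butein fell from 2.16 to 1.13 for Clcf1 and from 1.52 to 1.39 for Hbegf. Of 9 counted genes of prostaglandin synthesis and breakdown, Ptgr1, the prostaglandin reductase 1 gene, was the 1 past 2-fold, at 740 with butein and 373 with sulfuretin, against 234 with DMSO. Pla2g4a, whose phospholipase releases arachidonic acid, read 118 with butein and 113 with sulfuretin, against 74.0 with DMSO. Against DMSO1 as deposited, Pla2g4a was at 0.02 with butein and -0.06 with sulfuretin on the log2 scale. Zfp36, which encodes tristetraprolin, a protein that speeds the decay of AU-rich cytokine transcripts, was 3.99-fold higher with butein, 1 of 9 counted genes of its list. It read 97.6 with butein and 20.6 with sulfuretin, against 24.5 with DMSO. With DMSO1 in place of DMSO the log2 difference of Zfp36 was 0.82, short of the criterion.

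Of the pathway lists, those without a gene past 2-fold in any of the 3 treatments were the interferon-stimulated genes, the receptors and the other chemokines. Of 10 counted interferon-stimulated genes, Ifit3 differed most with butein, at 39.8 with butein and 57.7 with sulfuretin, against 77.3 with DMSO. With resveratrol, where Cxcl10 was higher, the 10 counted genes of that list had a median of 0. Ifit1 read 12.9 with resveratrol against 9.00 with DMSO1, under the median there, and was 1.44-fold higher. Ifit3 was at -0.15 on the log2 scale. A link to Cxcl10 was not tested. Of 16 receptor genes of the members on the array, 8 were under the median on all 5 arrays. Ackr3, the atypical receptor for CXCL12, read 45.3 with butein and 48.0 with sulfuretin, against 30.1 with DMSO. Against DMSO1 as deposited, Ackr3 was at -0.67 with butein and -0.59 with sulfuretin on the log2 scale. Of 26 other chemokine genes, 12 were under the median on all 5 arrays. Ccl9 read 107 with butein and 142 with sulfuretin, against 206 with DMSO, and 138 with resveratrol against 177 with DMSO1. After joint quantile normalisation Ccl9 was at 0.15 with sulfuretin against DMSO1 and at -1.03 with resveratrol against DMSO. With sulfuretin and with resveratrol, 0 genes of the NF-kB, IL-6 and STAT3, cytokine, prostaglandin and transcript decay lists passed 2-fold, where of all counted genes 0.203% were higher and 0.0508% lower with sulfuretin, and 0.08% higher and 0.0711% lower with resveratrol.

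For each of the 6 member genes past 2-fold with some compound, the genes most like it were found by Euclidean distance over the 3 log2 differences to control, among 11669 other genes. For Cxcl1 the closest gene was Ccl2, and for Ccl2 the closest was Cxcl1, at a distance of 0.266 log2 units. For Ptgs2 the closest were Egr1 (0.160), Plk2 (0.228) and Ddit3 (0.275). For Csf1 they were Brd2 (0.167), Otud1 (0.204) and Nab2 (0.221), and for Cxcl5 they were Nqo1 (0.367), Slc4a4 (0.468) and Ly96 (0.512). Cxcl10 had no neighbour closer than Hivep3 (0.694). These distances rest on 3 differences from the same 5 arrays, 2 of which share the DMSO array, and describe those arrays alone.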

How the data were processed

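Total RNA of 5 cultures (500 ng each, per the labels) was measured on 5 Affymetrix arrays, 1 per group. The deposited values are probe set intensities on a linear scale, made with RMA per the submitters' processing notes. The RMA version and the genome build were both not given in the sources used here. Equal array medians within DMSO, butein and sulfuretin, and other medians in DMSO1 and resveratrol, split the arrays into 2 sets, and no label says whether these were normalised apart.

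Log2 of each intensity was taken and 2 arrays were subtracted. With 1 array per group there was no test. Probe sets were called at 2-fold, values were equal within 1e-06 on the log2 scale, and a probe set was counted when its brighter array reached that array's median. Members were named through GEO's platform annotation, which names 1 gene for 34945 probe sets, several for 932 and none for 9160. Of the probe sets named by 1 gene, 34741 had a gene identifier found in RefSeq (GRCm38.p6), from which symbols of other genes were updated. Every probe set of a member was reported. Of other lists, up to 4 genes past 2-fold per comparison, by the brightest probe set, were named. Il6st, Pla2g4a, Ifit1, Ifit3, Ackr3 and Ccl9 were named after their values were seen. Members and lists were chosen with earlier results of these data known. The number of arrays limits the precision, since no spread between replicates could be measured. The subtraction and calls were tested on simulated data, which checks the arithmetic. The simulated noise did not come from replicates, so it does not show how reliable a call is. Alternatives were folds of 1.5 and 3, other floors, joint quantile normalisation, centring, either or both DMSO arrays as control, a pseudocount of 8, and probe set choice. Python 3.11.15, numpy 2.4.6, pandas 2.3.3 and matplotlib 3.10.9 were used.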

Additional observations from a re-analysis of the deposited data

How the results depend on the processing

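No direction of a member probe set past 2-fold in the main setting turned under any of the alternatives. Some that were short of 2-fold there did turn. With resveratrol against DMSO after joint quantile normalisation, Ptgs2 on 1417262_at went from 0.46 to -1.72 and Ccl7 from 0.52 to -1.06. Counts of member probe sets past 2-fold moved with the criterion. At 1.5-fold they were 4 with sulfuretin, 4 with resveratrol and 8 for sulfuretin minus butein, and at 3-fold 4 with butein, 1 with sulfuretin, 1 with resveratrol and 1 for sulfuretin minus butein. With a floor at percentile 75 they were 1 with sulfuretin and 1 with resveratrol, and with a pseudocount of 8 they were 1 and 0. Without probe sets of shared suffixes they were 4 with butein and 1 for sulfuretin minus butein. With 1 mean value per gene, 4 genes passed with butein and 1 each with sulfuretin, with resveratrol and for sulfuretin minus butein. With the other DMSO array as deposited, 6 were higher and 1 lower with butein, the lower one being Csf1 on 1425155_x_at at -1.0. With joint quantile normalisation and the other DMSO array 7 passed with sulfuretin, and with the mean of both DMSO arrays 5 passed with sulfuretin and 0 with resveratrol. With the other DMSO array as deposited 4 passed with resveratrol. With joint quantile normalisation and the other array 2 passed with resveratrol, both of them lower, and Junb with butein reversed to -0.16 with the other array as deposited. The cause was not tested. Over the 6 other settings, log2 differences with butein ranged from 2.27 to 4.47 for Ptgs2 on 1417262_at, from 1.43 to 2.42 for Ccl2, from 1.28 to 2.02 for Cxcl5 and from 1.67 to 2.39 for Cxcl1 on 1419209_at. With sulfuretin, Cxcl5 ranged from 1.09 to 1.87. No paired analysis was possible because each group has 1 array.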

Other observations

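The deposited values of an array are coarse. The 45037 probe sets took 12509 to 12800 distinct values with sulfuretin and butein and 13405 with DMSO, and 12835 with resveratrol and 12090 with DMSO1. The reading of Il6 was shared by 1143 probe sets on the resveratrol array and 981 on the DMSO1 array. On the resveratrol array Cxcl1 had 1 reading, 70.4, on both 1419209_at and 1441855_x_at, which 37 probe sets shared. Readings of the members past 2-fold with butein were shared by 1 to 27 probe sets on the butein array.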
